A study of Bos taurus with 9 samples.

Results

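The transcripts described here code for respiratory complexes II, III, IV and V of the mitochondrial inner membrane, in cloned Bos taurus embryos. Members were chosen by symbol: the SDH, UQCR, CYC1, COX and ATP5 genes of the nucleus, and the cytochrome b, cytochrome c oxidase and ATP synthase genes of the mitochondrial genome. Cytochrome c itself was not among them. The rule found 64 genes among the 16713 listed in all 6 morula files, and all 64 were also listed in the 8-cell files. Complex II had 4 members, complex III 10, complex IV 30 and complex V 20. Of these genes, 6 are mitochondrially encoded and 58 nuclear. The nuclear members were 41 rows for structural subunits, 5 for tissue isoforms of complex IV and 12 for assembly factors and related genes.

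RNA sequencing covered 9 libraries in 3 groups of 3, all of cloned embryos, each grown from an emptied egg that received the nucleus of a somatic cell. KDM6A morulae came from embryos that received mRNA coding for bovine wild-type KDM6A, a histone H3 lysine demethylase, 1 h after activation. Control morulae were not injected, so injection itself had no control. Morulae were lysed on day 5 in pools of 5, and the donor cells were fibroblasts of 1 Holstein fetus. The 8-cell embryos come from an earlier series, so stage and the series of origin cannot be told apart. No label gives separate days or egg batches to the pools within a group. The p-values thus reflect only how far these samples vary, and part of that may be technical.

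Complex II (succinate dehydrogenase) and complex III (the cytochrome bc1 complex) pass electrons along the chain, and complex IV (cytochrome c oxidase) hands them to oxygen. Complexes III and IV pump protons, and complex V (ATP synthase) uses the proton gradient to make ATP. Complex II is coded wholly by the nucleus, whereas the other complexes join nuclear subunits to subunits made from mitochondrial genes, so their assembly draws on both genomes. The early embryo inherits its mitochondria from the egg, and in a cloned embryo the nuclear genes come from the donor cell.

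Values are FPKM: fragments per transcript kilobase, relative to the total of the library. A change in RNA per embryo, in cell number or in RNA per cell therefore cannot be told apart. The depth of the libraries is unknown. KDM6A itself had 35.7 to 87.6 FPKM in KDM6A morulae, 10.7 to 13.9 in control morulae and 6.13 to 10.7 in 8-cell embryos. The summed level of 10 oocyte markers ran from 42.3 to 51.5 FPKM in KDM6A morulae, 29.5 to 120.7 in control morulae and 413.5 to 457.1 in 8-cell embryos. The sum of 9 morula and early lineage markers was 646 to 882 FPKM in KDM6A morulae, 758 to 988 in control morulae and 1330.5 to 1967 in 8-cell embryos, and thus highest in 8-cell embryos; all 9 reached 1 FPKM in every morula library and 7 did so in every 8-cell library. For the 4 listed of 7 markers of the 8-cell stage and genome activation it was 1585 to 1708.5 FPKM in KDM6A morulae, 1606 to 2036 in control morulae and 1416 to 2043 in 8-cell embryos, which overlapped. For 10 donor fibroblast markers the sum was 80.4 to 130.7 FPKM in KDM6A morulae, 118 to 167 in control morulae and 18.5 to 67.7 in 8-cell embryos. For 9 listed cumulus and granulosa markers it was 4.92 to 10.6 FPKM in KDM6A morulae, 5.85 to 7.40 in control morulae and 16.7 to 28.4 in 8-cell embryos. INHA was listed at 0 in all KDM6A morula and all 8-cell libraries, PTX3 in all 8-cell libraries, and GREM1 in all control morula libraries. The part of any of these cells in the results below was not tested.

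The members were among the most abundant transcripts of these embryos. Shares of a library are given of the FPKM summed over the 16129 genes listed in all 9 libraries. Summed over all 64, the members held 12.1% to 15.1% of it in KDM6A morulae, 12.96% to 13.9% in control morulae and 9.61% to 12.2% in 8-cell embryos. ATP6, which codes for the proton channel subunit a of ATP synthase, was the gene of highest FPKM in every morula library, and it ranked 2 in every 8-cell library. Among the 500 genes of highest FPKM stood 30 to 33 nuclear structural rows in KDM6A morulae, 32 or 33 in control morulae and 18 to 25 in 8-cell embryos. Within the nuclear part of complex V, ATP5L (subunit g) and ATP5G3 (subunit c) had the highest means in both kinds of morula. Within complex IV it was COX7A2, an accessory subunit, followed by COX5B.

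**Figure D1:**
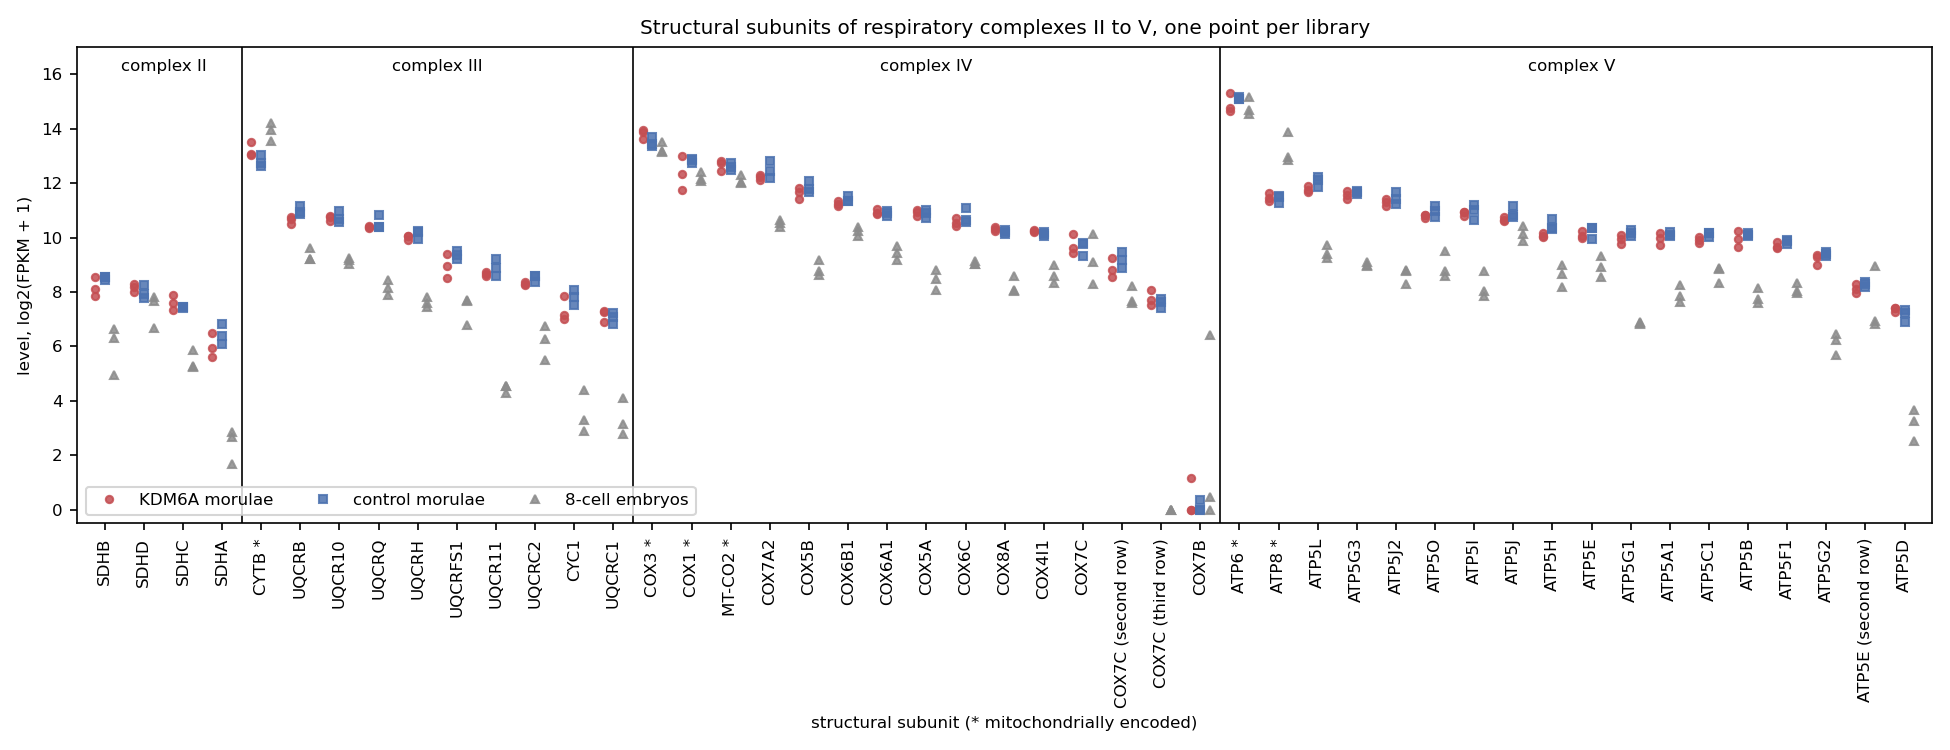
Level of each structural subunit on the log2(FPKM + 1) scale, with 1 point per library: circles for KDM6A morulae, squares for control morulae and triangles for 8-cell embryos. Members are grouped by complex, and an asterisk marks mitochondrially encoded genes. Morula points lie close together, while the nuclear 8-cell points mostly lie below them and spread more widely.

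The subunits of a complex are built in fixed proportions, but their transcripts were not level. In complex III, mean FPKM in control morulae ran from 131 for UQCRC1 to 2026 for UQCRB. The SD given next pools the complexes, so it mixes differences between complexes with those inside each. It also counts ATP5G1, ATP5G2 and ATP5G3 as separate subunits. Across the 35 nuclear structural subunits other than COX7B, COX7C and ATP5E, the SD of log2(FPKM + 1) was 1.43 to 1.61 in KDM6A morulae, 1.47 to 1.65 in control morulae and 2.00 to 2.24 in 8-cell embryos. The spread between subunits in the 8-cell libraries thus exceeded that in every morula library. The plot of levels by subunit shows which members stood apart. In 8-cell embryos SDHA, CYC1, UQCRC1, UQCR11 and ATP5D lay far below the other members of their complexes, and in morulae they lay nearer to them.

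Between KDM6A and control morulae, 0 of 60 members tested were called at an adjusted p under 0.05 (limma on log2(FPKM + 1), Benjamini-Hochberg). Of all 9777 genes tested, 0.164% were called (0.123% higher and 0.0409% lower). The absence of calls thus lies near the background and does not show the groups to be alike. Log2 fold changes of the members ran from -0.60 to 0.40. At an unadjusted p under 0.05 there were 2 higher members, CYTB and COX3, where 6.31% of all genes were higher. There were 4 lower, UQCRB, ATP5H, ATP5L and COX11, where 6.41% were lower. The smallest adjusted p of a member was 0.307, so none of these shifts stood out from the spread between libraries once all genes were counted. The libraries did not overlap for 1 higher member, CYTB, and 3 lower, UQCRB, ATP5H and ATP5SL; over all genes 7.10% did not overlap upward and 8.61% downward. Below the filter of 1 FPKM in 3 libraries, and so not tested, were COX4I2, COX6A2, COX7A1 and COX7B.

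Without a call for any member, the nuclear subunits nevertheless lay mostly on the low side. Of the 40 nuclear structural rows tested, 30 had a log2 fold change below 0, KDM6A over control, with a median of -0.16; over all genes 51.4% were below 0 and the median was -0.01. These rows share libraries, so their common direction is a description and not 30 separate results. With 1 library left out their median ran from -0.20 to -0.09. As a share of the FPKM of the shared genes in each library they held 5.20% to 5.69% in KDM6A morulae and 5.30% to 6.40% in control morulae, which overlapped. By complex, the number below 0 was 2 of 4 in complex II, 8 of 9 in complex III, 5 of 11 in complex IV and 15 of 16 in complex V. The medians of the log2 fold changes were -0.09 in complex II, -0.20 in complex III, 0.04 in complex IV and -0.16 in complex V. Complex IV therefore lay nearest to the median of all genes, on its upper side.

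In complex II, SDHA and SDHB form the catalytic head that oxidizes succinate, and SDHC and SDHD anchor it in the membrane. SDHA had 87.9, 59.9 and 48.1 FPKM in KDM6A morulae, 67.2, 113 and 82.6 in control morulae, and 6.27, 5.41 and 2.24 in 8-cell embryos. The morula groups overlapped, and between them the log2 difference was -0.43 ± 0.25 (estimate ± SE, as in all such pairs below; limma adjusted p = 0.482). SDHB, the iron-sulfur subunit, had 373, 273 and 232 FPKM in KDM6A morulae, 375, 370.45 and 346 in control morulae, and 99.0, 30.1 and 77.4 in 8-cell embryos. KDM6A replicate 1 stood level with the control libraries and the other two stood below them (log2 fold change -0.34 ± 0.18, adjusted p = 0.440). The anchors leaned the other way, with log2 fold changes of 0.17 ± 0.16 for SDHC and 0.17 ± 0.16 for SDHD, neither called. SDHC had 235, 161 and 190.15 FPKM in KDM6A morulae, 169.5, 173 and 171 in control morulae, and 57.25, 36.45 and 38.0 in 8-cell embryos. SDHD had 255, 292 and 310.5 FPKM in KDM6A morulae, and 1 of the 3 control libraries lay within that range, with the other two below it.

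In complex III, cytochrome b (CYTB) is the mitochondrially encoded core, CYC1 is cytochrome c1 and UQCRFS1 the Rieske iron-sulfur protein. CYC1 had 232, 142 and 127 FPKM in KDM6A morulae and 226, 268 and 180.5 in control morulae, so that KDM6A replicate 1 lay within the control range and replicates 2 and 3 below it (log2 fold change -0.46 ± 0.23, adjusted p = 0.430). UQCRFS1 showed the same arrangement, with 673, 498 and 369 FPKM in KDM6A morulae and 647, 724 and 597 in control morulae (-0.39 ± 0.20, adjusted p = 0.430). UQCRB, which binds near the ubiquinone site, had 1733, 1456 and 1634 FPKM in KDM6A morulae and 1852, 1967 and 2259 in control morulae. The groups did not overlap, yet the log2 fold change of -0.33 ± 0.12 did not pass the test across all genes (adjusted p = 0.319). CYTB lay on the other side, at 11630, 8503 and 8373 FPKM in KDM6A morulae against 8275, 6903 and 6365 in control morulae. The lowest KDM6A library exceeded the highest control library by little (log2 fold change 0.40 ± 0.15, adjusted p = 0.316).

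In complex IV, COX1, MT-CO2 and COX3 form the mitochondrially encoded core, of which the COX1 and MT-CO2 products carry the copper and heme centres. COX1 had 8096, 3398 and 5182 FPKM in KDM6A morulae, 6830, 7594 and 7365 in control morulae, and 4557, 5377 and 4291 in 8-cell embryos. The KDM6A libraries spread from below the 8-cell range to above the control range, and the log2 fold change against control was -0.47 ± 0.24 (adjusted p = 0.431). COX3 had 15845, 12612 and 15113 FPKM in KDM6A morulae, 13102, 10992 and 10415 in control morulae, and 11635, 9076 and 9282 in 8-cell embryos. The morula groups overlapped through KDM6A replicate 2 and control replicate 1 (0.34 ± 0.12, adjusted p = 0.307). After quantile normalization the value was 0.53 and COX3 was called higher, with 0.194% of all genes called higher under that setting (adjusted p = 0.0117; range over 16 alternatives 0.0117 to 0.690). MT-CO2, at 7133, 5598 and 6838 FPKM in KDM6A morulae and 6136, 5749 and 6820 in control morulae, was nearly level, with a log2 fold change of 0.06 ± 0.12 that was -0.01 without KDM6A replicate 1. COX4I1, a nuclear subunit that binds regulatory nucleotides, had 1220, 1228 and 1182 FPKM in KDM6A morulae and 1123, 1055 and 1190 in control morulae, with overlapping libraries (0.11 ± 0.11).

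In complex V, ATP6 had 40271, 28053 and 25558 FPKM in KDM6A morulae, 35099, 36493 and 34980 in control morulae, and 23566, 36397 and 26222 in 8-cell embryos. As for COX1, KDM6A replicate 1 stood above the control libraries and the other two KDM6A libraries stood below them (log2 fold change -0.21 ± 0.14, adjusted p = 0.555). ATP8, the other mitochondrial subunit, had 3140, 2824 and 2610 FPKM in KDM6A morulae and 2916, 2871 and 2443 in control morulae. These libraries overlapped, and the log2 fold change of 0.06 ± 0.12 turned to -0.02 without control replicate 3 and -0.01 without KDM6A replicate 1. Among nuclear subunits, ATP5H (subunit d of the peripheral stalk) had 1144, 1035 and 1056 FPKM in KDM6A morulae against 1299.8, 1268 and 1619 in control morulae, without overlap (-0.36 ± 0.13, adjusted p = 0.307). ATP5L had 3826, 3261 and 3476 FPKM in KDM6A morulae and 3679, 4452 and 4764 in control morulae, with KDM6A replicate 1 inside the control range (-0.28 ± 0.12, adjusted p = 0.380). ATP5D, subunit delta of the central stalk, was the only nuclear structural row of complex V above 0, at 0.20 ± 0.16. Summed over the 16 nuclear structural rows, complex V had 23457, 21258 and 22307 FPKM in KDM6A morulae and 23704, 24726 and 27822 in control morulae. As a share of the FPKM of the shared genes in each library, those sums were 2.34% to 2.53% in KDM6A morulae and 2.44% to 2.84% in control morulae, and the groups overlapped.

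KDM6A replicate 1 had the highest FPKM of the 6 morula libraries for every mitochondrially encoded member. Its KDM6A level was the lowest of its group, at 35.7 FPKM beside 87.6 and 79.4 in replicates 2 and 3. The count of calls between KDM6A and control morulae depended on this library. Without it, 4 members were called lower, where 3.75% of all genes were: COX1 at -0.79 ± 0.17 (adjusted p = 0.0248), COX11 at -0.87 ± 0.20 (0.0320), ATP6 at -0.41 ± 0.10 (0.0413) and CYC1 at -0.72 ± 0.19 (0.0468), all by limma. COX11, an assembly factor that delivers copper to cytochrome oxidase, had 27.9, 18.6 and 12.8 FPKM in KDM6A morulae, 29.0, 30.7 and 27.8 in control morulae, and 47.0, 24.2 and 47.6 in 8-cell embryos. Over the alternatives the adjusted p ran from 0.0248 to 0.917 for COX1, 0.0320 to 0.817 for COX11, 0.0413 to 1 for ATP6 and 0.0468 to 0.867 for CYC1. Leaving out any other library gave 0 calls in either direction. COX18, which inserts a core subunit into the membrane, had 17.4, 14.3 and 8.69 FPKM in KDM6A morulae and 20.2, 22.1 and 16.2 in control morulae (-0.54 ± 0.25, adjusted p = 0.402), beside 14.5, 13.05 and 13.7 in 8-cell embryos. ATP5SL, known as DMAC2 and described as a complex I assembly factor in human cells, had 13.9, 12.5 and 10.2 FPKM in KDM6A morulae and 15.1, 18.1 and 15.3 in control morulae (-0.38 ± 0.20, adjusted p = 0.436).

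**Figure D2:**
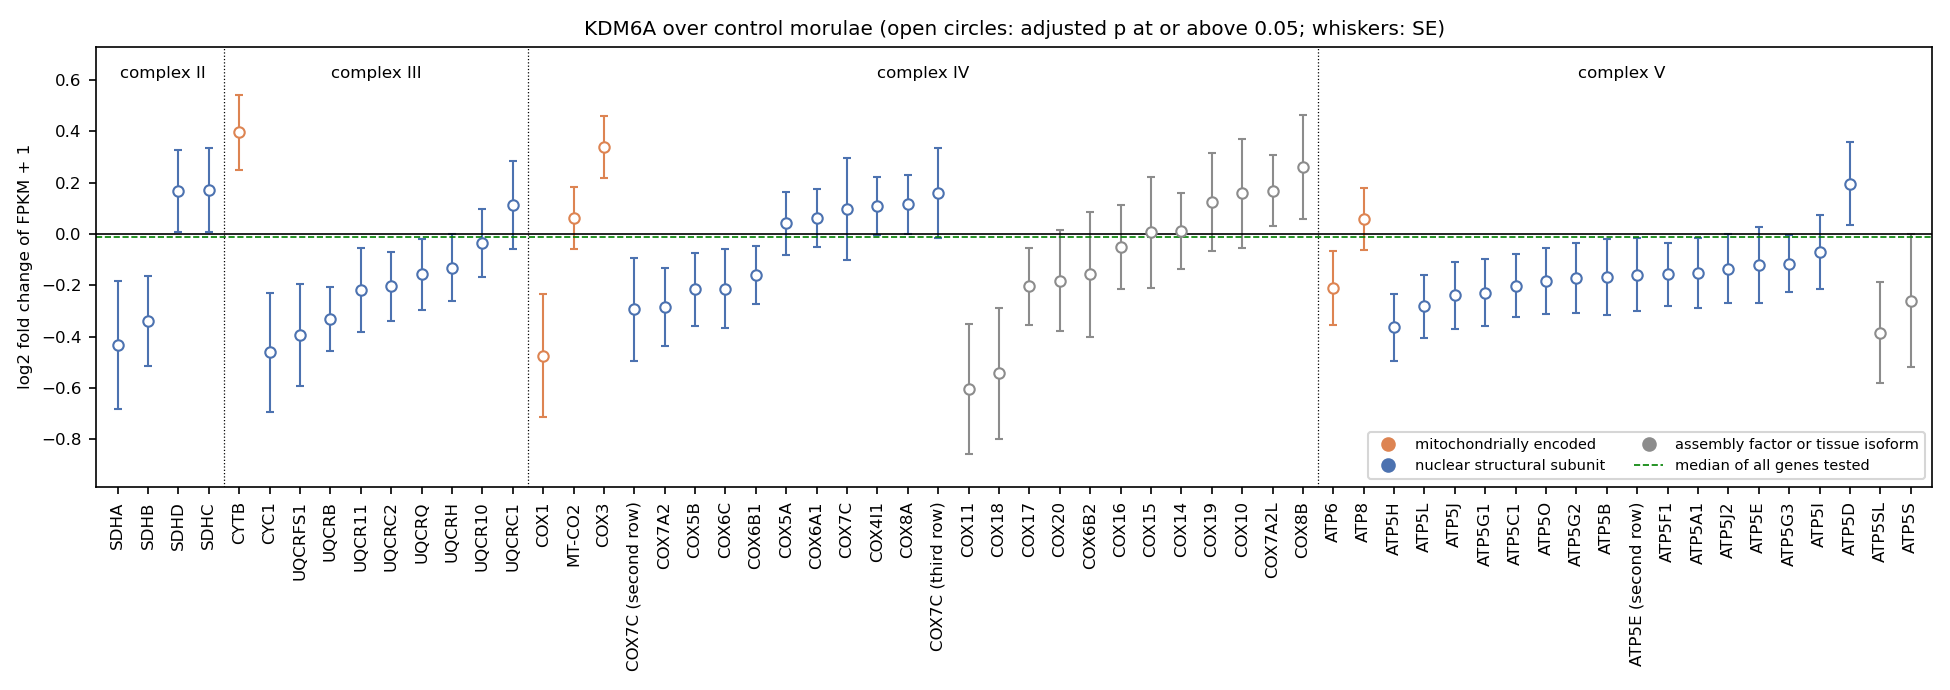
Log2 fold change of FPKM + 1, KDM6A over control morulae, for the 60 members tested, by complex, with SE as whiskers; colours separate mitochondrially encoded genes, nuclear structural subunits, and assembly factors or isoforms, and the dashed line is the median of all genes tested. All circles are open because 0 members were called, and in complex V 15 of 16 nuclear structural rows lie below 0.

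Control morulae and 8-cell embryos differed throughout the nuclear subunits. Of 61 members tested, 46 rose and 4 fell in control morulae over 8-cell embryos (limma, adjusted p under 0.05), where 42.7% of all 10048 genes tested were higher and 27.1% lower. The libraries did not overlap for 47 members upward and 4 downward, where 45.4% and 29.1% of all genes did not. Of the 40 nuclear structural rows tested, 37 were higher and 0 lower, with a median log2 fold change of 2.10; the median of all genes was 0.35. Rescaling moved the median of all genes to 0.19 (TPM), 0.07 (quantile normalization) and 0.10 (median of ratios), and that of the nuclear structural rows to 1.92, 1.92 and 1.83. Against those shifts the nuclear rows stood about as far above all genes as before. Of the 46 higher members, 43 kept the call under every alternative that tested them, and 45 in every test with 1 library left out. Of these, the third COX7C row was tested under 13 of 16 alternatives, with 3 of its 6 omissions, and COX15 under 15 of 16. That COX7C row is counted in all the upward counts above. It passed the filter through the control morulae alone, so its call and its lack of overlap were fixed in advance. Of the 4 lower members, 3 kept the call under all alternatives. None of these differences can be told apart from the change of source series.

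In complex II, 3 of 4 subunits rose. SDHA averaged 87.7 ± 23.5 FPKM in control morulae and 4.64 ± 2.12 in 8-cell embryos (SD, n = 3 each), an 18.9-fold difference of means (log2 fold change 4.03 ± 0.33, limma adjusted p = 7.25e-06). SDHB was 5.29-fold and SDHC 3.90-fold higher in control morulae. SDHD had 305, 244 and 219 FPKM in control morulae against 226, 102 and 202 in 8-cell embryos. These libraries overlapped through 8-cell replicate 1, and SDHD was not called (0.60 ± 0.29, adjusted p = 0.0899), but without that replicate it was called at 0.81. The order of levels within the complex also differed: SDHB was highest in every control morula library, whereas SDHD was highest in every 8-cell library.

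All 9 nuclear subunits of complex III rose, from 3.04-fold for UQCR10 to 22.9-fold for UQCR11, both small accessory subunits. UQCR11 had 384, 468 and 588 FPKM in control morulae against 18.4, 22.3 and 22.1 in 8-cell embryos (log2 fold change 4.44 ± 0.20, limma adjusted p = 5.20e-07). CYC1 had 226, 268 and 180.5 FPKM in control morulae against 20.0, 6.44 and 8.83 in 8-cell embryos, a 19.1-fold difference (4.27 ± 0.35, adjusted p = 7.25e-06). UQCRC1, a core protein on the matrix side, averaged 131 ± 17.3 FPKM in control morulae and 9.96 ± 5.37 in 8-cell embryos, a 13.2-fold difference. Its partner core protein UQCRC2 was 4.79-fold higher. In each case the lowest control library exceeded the highest 8-cell library. The smallest folds of the complex were those of its most abundant nuclear subunits, UQCRB at 3.08-fold and UQCR10 at 3.04-fold. UQCRB had 793, 589 and 589 FPKM in 8-cell embryos. UQCR10 had 1546, 1708 and 1761 FPKM in KDM6A morulae, 1523, 1629 and 2014 in control morulae, and 525, 604 and 572 in 8-cell embryos. UQCRQ, a small subunit that contacts cytochrome b, had 1327, 1307 and 1364 FPKM in KDM6A morulae, 1341, 1352 and 1811 in control morulae, and 342, 285 and 234 in 8-cell embryos. For both, the morula groups overlapped and all 8-cell libraries lay below them.

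In complex IV, 10 of 11 nuclear structural rows tested rose. They include the third COX7C row, which passed the filter through the morula libraries alone, so its call is not evidence of a rise. COX5B, a zinc-binding subunit, had 3241, 3558 and 4341 FPKM in control morulae against 438, 579 and 395 in 8-cell embryos, a 7.89-fold difference without overlap (2.99 ± 0.20, limma adjusted p = 2.77e-06). COX5A followed at 5.29-fold, COX7A2 at 3.97-fold and COX8A at 3.86-fold. COX7A2 had 4766, 4374 and 4976 FPKM in KDM6A morulae, 4630.15, 5569 and 7269 in control morulae, and 1596, 1481 and 1321 in 8-cell embryos. The morula groups overlapped, and both stood above the 8-cell libraries. COX4I1, which pairs with the mitochondrial core early in assembly, was 2.79-fold higher, with 506, 318 and 385 FPKM in 8-cell embryos, and COX6B1, on the outer face, 2.27-fold. COX7C stands on 3 rows that may share reads and are uncertain. The first had 631, 866 and 894 FPKM in control morulae against 1132, 550.3 and 311 in 8-cell embryos and was not called, except without 8-cell replicate 1. The second was 2.53-fold higher, and the third had 207, 183 and 266 FPKM in KDM6A morulae and 168, 215 and 199.6 in control morulae and was listed at 0 in all 8-cell libraries, where no fold is given. Summed over the 3 rows, COX7C had 1265 to 1792 FPKM in control morulae and 502 to 1427 in 8-cell embryos, which overlapped. The COX7B row was at or under 1.24 FPKM in every morula library and had 83.9, 0 and 0.37 FPKM in 8-cell embryos, so 1 library alone held a level there.

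In complex V, 15 of 16 nuclear structural rows rose, from 1.70-fold for ATP5J to 17.3-fold for ATP5D. ATP5D had 161, 150.4 and 119 FPKM in control morulae against 11.5, 4.69 and 8.68 in 8-cell embryos (4.02 ± 0.29, limma adjusted p = 3.65e-06). ATP5L had 843, 673 and 601 FPKM in 8-cell embryos and ATP5H 503, 289 and 401, below the morula values given above. Both catalytic subunits were higher: ATP5A1 (alpha) was 4.53-fold and ATP5B (beta) 4.81-fold higher in control morulae. ATP5B had 1078, 1158 and 1077 FPKM in control morulae against 283, 194 and 212 in 8-cell embryos, with no overlap. ATP5J, coupling factor 6, had 1817, 1733 and 2265 FPKM in control morulae and 1110.2, 1362 and 947 in 8-cell embryos. Its log2 fold change of 0.77 ± 0.20 was called (adjusted p = 0.00566), but not on the quantile-normalized (0.37) or the median-of-ratios scale (0.49). ATP5E (subunit epsilon) stands on 2 rows that may share reads and are uncertain. Summed over both rows, it had 1265 to 1644 FPKM in control morulae and 600 to 870 in 8-cell embryos, without overlap. In the 8-cell series the first row carried a locus name and the second the symbol ATP5E. The first was 2.41-fold higher; the second had 286, 312 and 329 FPKM in control morulae against 494, 112 and 122 in 8-cell embryos and was not called, with 8-cell replicate 1 above all control libraries; without that replicate it was called higher.

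The c-ring of ATP synthase, the rotor that protons turn, is coded by ATP5G1, ATP5G2 and ATP5G3, which differ in the leader that directs import and give the same mature protein. ATP5G1 was 10.1-fold (3.32 ± 0.16), ATP5G2 9.42-fold (3.25 ± 0.22) and ATP5G3 6.34-fold (2.66 ± 0.16) higher in control morulae than in 8-cell embryos. ATP5G1 had 1098, 874 and 975 FPKM in KDM6A morulae, 1145, 1062 and 1239.6 in control morulae, and 114, 111 and 118 in 8-cell embryos. ATP5G2 had 616, 509 and 659.7 FPKM in KDM6A morulae, 699.7, 638 and 664 in control morulae, and 87.35, 50.6 and 74.5 in 8-cell embryos. ATP5G3 had 3325, 2707 and 3032 FPKM in KDM6A morulae, 3282, 3134 and 3374 in control morulae, and 543, 503 and 497 in 8-cell embryos. In all 3 genes the 8-cell libraries stood well below every morula library. ATP5G3 gave 65.0% to 66.2% of their summed FPKM in KDM6A morulae, 63.9% to 64.8% in control morulae and 72.1% to 75.7% in 8-cell embryos. ATP5G1 gave 20.9% to 21.8% in KDM6A morulae, 22.0% to 23.5% in control morulae and 15.3% to 17.1% in 8-cell embryos. All 3 genes thus kept 1 order in every library, and the share of ATP5G1 was higher in all morula libraries than in all 8-cell libraries.

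**Figure D3:**
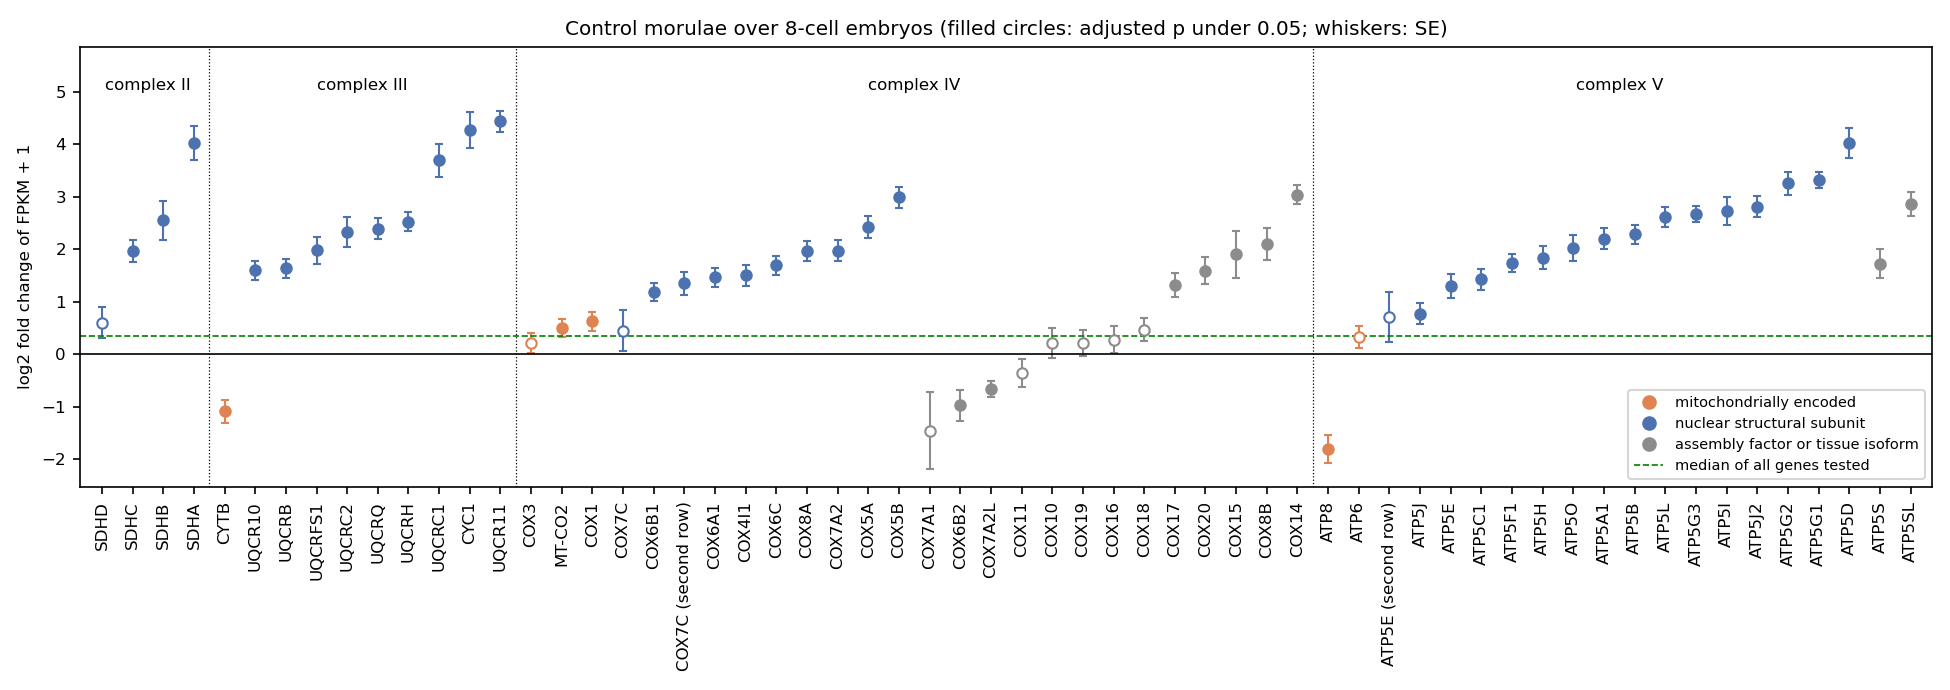
Log2 fold change of FPKM + 1, control morulae over 8-cell embryos, by complex, with SE as whiskers and filled circles for members called. The third COX7C row is not drawn because it is listed at 0 in all 8-cell libraries. Nuclear structural subunits lie at or above the dashed median of all genes tested, and CYTB and ATP8 lie below 0.

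The mitochondrially encoded members did not follow the nuclear ones. Of 6, COX1 and MT-CO2 rose in control morulae over 8-cell embryos, CYTB and ATP8 fell, and COX3 and ATP6 were not called; their median log2 fold change was 0.27. CYTB had 8275, 6903 and 6365 FPKM in control morulae against 11816, 18927 and 15792 in 8-cell embryos, without overlap (-1.09 ± 0.22, limma adjusted p = 0.00140). ATP8 had 2916, 2871 and 2443 FPKM in control morulae against 7429, 15087 and 7961 in 8-cell embryos, where replicate 2 stood far above the others (-1.82 ± 0.27, adjusted p = 0.000208). Both falls were called under all 16 alternatives, at -1.49 for ATP8 when 8-cell replicate 2 was left out.

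The rises were smaller and less firm. COX1 was 1.53-fold higher in control morulae (0.62 ± 0.17, limma adjusted p = 0.00942), a call lost under median-of-ratios scaling (0.34). MT-CO2 had 6136, 5749 and 6820 FPKM in control morulae against 4163, 5074 and 4068 in 8-cell embryos, without overlap (0.49 ± 0.18, adjusted p = 0.0302). That call was lost under 8 of 16 alternatives, among them leaving out control replicate 1 (0.50), control replicate 3 (0.43) or 8-cell replicate 3 (0.44). COX3 was at 0.20 ± 0.19 and turned to -0.08 under median-of-ratios scaling, but was called at 0.52 after quantile normalization. ATP6 was at 0.33 ± 0.21 and was called at 0.51 without 8-cell replicate 2, the library with the highest ATP6 of its group. After quantile normalization it was called at 0.54, as fixed by its rank: 1 in every control morula and 2 in every 8-cell library.

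ATP8 and ATP6 lie next to each other on the mitochondrial genome, and their RefSeq annotations overlap by 40 bases. They nonetheless moved apart: the ratio of ATP6 to ATP8 FPKM was 9.79 to 12.8 in KDM6A morulae, 12.04 to 14.3 in control morulae and 2.41 to 3.29 in 8-cell embryos. The sources used here do not say how reads shared by the annotations were divided, and an annotated gene of 201 bases such as ATP8 is short for a per-length measure. Whether the difference in ratio comes from the transcripts or from counting was not tested.

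**Figure D4:**
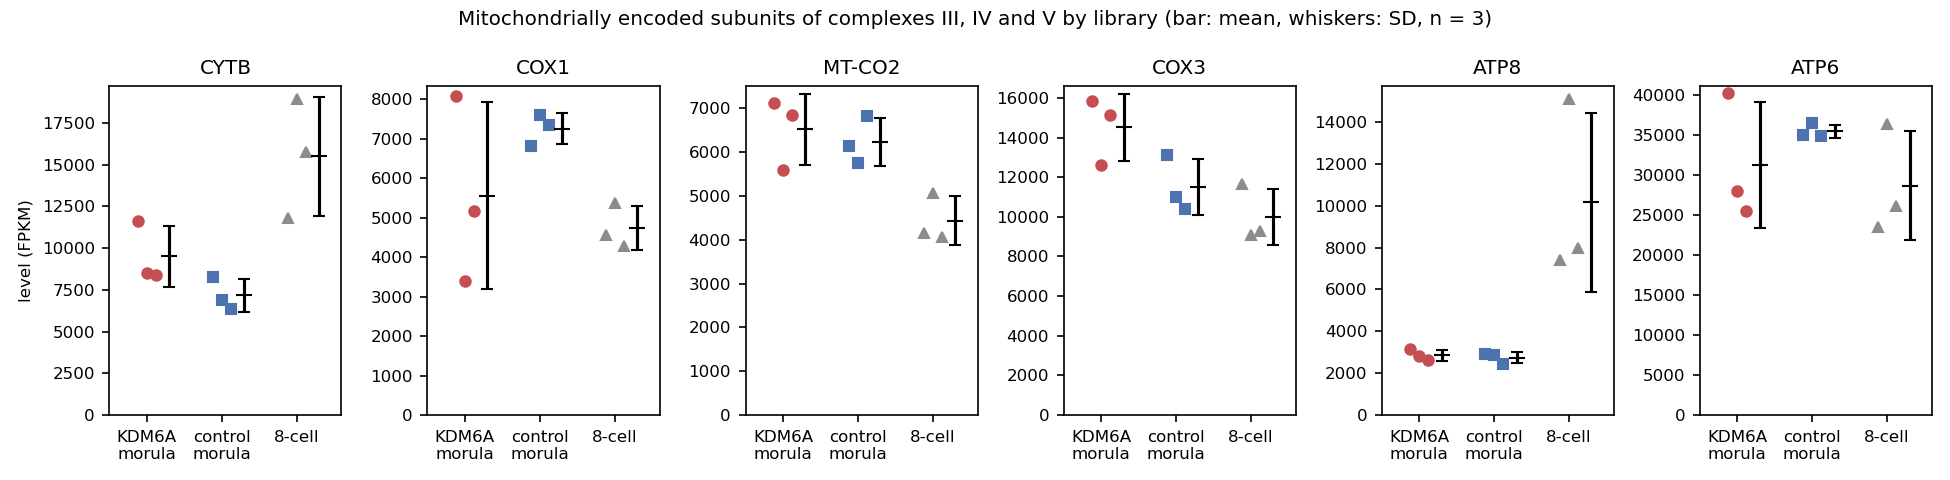
FPKM of the 6 mitochondrially encoded members, with 1 point per library and the group mean and SD (n = 3) beside the points, in KDM6A morulae, control morulae and 8-cell embryos. CYTB and ATP8 are highest in 8-cell embryos, and KDM6A replicate 1 is the highest KDM6A library for every gene shown.

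The balance of the genomes separated the morula libraries from the 8-cell libraries by a wide margin. Here too stage cannot be told apart from the change of source series. Mitochondrially encoded members made up 61.5%, 55.2% and 54.3% of the summed FPKM of all members in KDM6A morulae, 57.6%, 55.5% and 51.2% in control morulae, and 77.6%, 85.8% and 82.5% in 8-cell embryos. The means were 57.0% ± 3.96 in KDM6A morulae, 54.7% ± 3.26 in control morulae and 82.0% ± 4.12 in 8-cell embryos (SD, n = 3 each). The morula groups overlapped and neither reached the 8-cell range. This share is the same under any scaling by 1 factor per library; quantile normalization is not of that kind. The sums differed mainly on the nuclear side: the summed FPKM of mitochondrial members in control morulae was 0.958 times that in 8-cell embryos, and that of nuclear structural rows 3.81 times.

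Of the 3 complexes with mitochondrial subunits, complex III had the widest gap between morulae and 8-cell embryos. There the ratio of mitochondrial to nuclear FPKM was 1.18 to 1.55 in KDM6A morulae, 0.695 to 1.11 in control morulae and 5.32 to 10.3 in 8-cell embryos. KDM6A and control morulae did not overlap in it, as they did not in CYTB itself, and no test was made of this sum. In complex IV the ratio was 1.18 to 1.57 in KDM6A morulae, 0.985 to 1.35 in control morulae and 2.75 to 3.21 in 8-cell embryos. In complex V it was 1.26 to 1.85 in KDM6A morulae, 1.35 to 1.60 in control morulae and 4.39 to 9.07 in 8-cell embryos. The partners cytochrome b and cytochrome c1 show the contrast within a single complex: CYTB exceeded CYC1 50.1 to 66.2 times in KDM6A morulae, 25.8 to 36.6 times in control morulae and 590.2 to 2939 times in 8-cell embryos. This pair is not typical of complex III. CYC1 was 19.1-fold higher in control morulae than in 8-cell embryos, where the median nuclear subunit was 5.24-fold higher. In KDM6A over control morulae CYC1 had the lowest log2 fold change of the complex (-0.46).

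**Figure D5:**
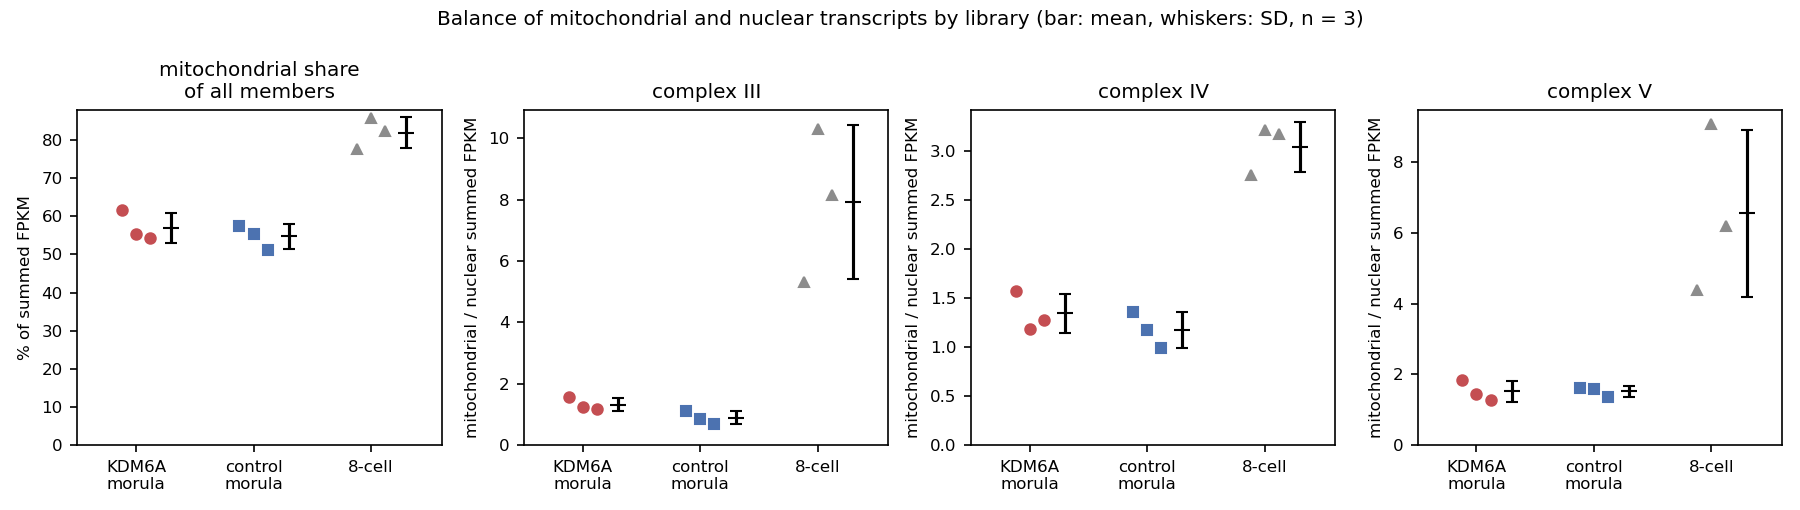
Mitochondrially encoded share of the summed FPKM of all members (left, in percent) and ratio of mitochondrial to nuclear structural FPKM in complexes III, IV and V, by library, with group means and SD (n = 3), for KDM6A morulae, control morulae and 8-cell embryos. The 8-cell libraries lie above all morula libraries in each panel.

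Assembly factors of complex IV were mixed. Of 10, 4 were higher in control morulae than in 8-cell embryos, 1 was lower and 5 were not called, where 42.7% of all genes were higher and 27.1% lower. Their median log2 fold change was 0.37, beside 0.35 for all genes, so neither the count nor the median lay far from the background. COX14, which helps in the synthesis of the COX1 protein, had 912, 849 and 1042 FPKM in KDM6A morulae and 771, 974 and 1047 in control morulae against 102, 109.8 and 125 in 8-cell embryos, an 8.30-fold difference between control morulae and 8-cell embryos (3.04 ± 0.18, limma adjusted p = 1.64e-06). COX17, a copper chaperone, was 2.45-fold higher, COX20, a chaperone of a core subunit, 3.24-fold, and COX15, needed for heme A, 4.98-fold from 8-cell levels of 0.12, 3.05 and 0.19 FPKM. COX7A2L, which ties complexes III and IV into supercomplexes, fell, with 303.5, 288 and 275 FPKM in control morulae against 498, 450.1 and 429 in 8-cell embryos (-0.67 ± 0.16, adjusted p = 0.00419). It was called under all 16 alternatives. COX10, COX11, COX16, COX18 and COX19 were not called, but COX16 was called higher without 8-cell replicate 1 and COX18 with no filter (0.47), and COX11 was called lower without 8-cell replicate 2 (-0.68) and under median-of-ratios scaling (-0.64).

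Tissue isoforms of complex IV were low beside the general forms. COX4I2, an isoform known from lung, stayed at or under 0.35 FPKM in every morula library and had 2.08, 0.85 and 2.19 FPKM in 8-cell embryos, whereas COX4I1 was above 300 FPKM throughout. The general forms that pair with the other isoforms were abundant in every library. COX6A1 had 1924, 1884 and 2126 FPKM in KDM6A morulae, 1776, 1898 and 2005 in control morulae, and 687, 817 and 570.25 in 8-cell embryos. COX6B1 had 2390.0, 2303 and 2624 FPKM in KDM6A morulae, 2601, 2623 and 2951 in control morulae, and 1325, 1075 and 1208 in 8-cell embryos. COX8A had 1204, 1277 and 1353 FPKM in KDM6A morulae, 1236, 1114 and 1187 in control morulae, and 385, 270.1 and 262 in 8-cell embryos. In each of them the morula groups overlapped and the 8-cell libraries lay below. COX6A2 and COX7A1, known from heart and skeletal muscle, reached at most 0.87 and 1.14 FPKM in morulae. COX6A2 had 0.43, 0 and 0.39 FPKM in 8-cell embryos, while COX7A1 had 0, 11.7 and 3.11. The COX7A1 difference was not called for either kind of morula. It was called lower without 8-cell replicate 1 for both, at -2.41 for control and -2.27 for KDM6A morulae, and for KDM6A morulae also with the replicate block (-1.32). COX8B had 13.9, 15.0 and 12.3 FPKM in KDM6A morulae and 10.4, 13.8 and 9.93 FPKM in control morulae against 3.04, 0.97 and 1.99 in 8-cell embryos and rose in control morulae over 8-cell embryos (2.09 ± 0.30, limma adjusted p = 0.000184). COX6B2, known from testis, fell, with 6.84, 5.96 and 5.46 FPKM in KDM6A morulae and 8.03, 4.68 and 8.52 FPKM in control morulae against 18.8, 10.96 and 14.8 in 8-cell embryos (control morulae over 8-cell embryos -0.98 ± 0.29, adjusted p = 0.0122). Without control replicate 2 its value was -0.74 and the call was lost (adjusted p = 0.0556; range over the alternatives 0.00288 to 0.0556). ATP5S, a factor associated with ATP synthase, was 3.87-fold and ATP5SL 11.7-fold higher in control morulae; ATP5SL had 1.56, 1.46 and 1.11 FPKM in 8-cell embryos.

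KDM6A morulae were set against the same 8-cell libraries, so the comparisons with 8-cell embryos share them. Of 61 members tested, 47 were higher and 5 lower (limma, adjusted p under 0.05), where 41.1% of all 10024 genes were higher and 25.6% lower. Of the 40 nuclear structural rows, 38 were higher and 0 lower, with a median log2 fold change of 2.10 beside 0.34 for all genes. Both counts of higher rows include the third COX7C row, which passed the filter through the KDM6A morulae alone. The largest folds here were those of ATP5D at 19.7-fold and UQCR11 at 19.4-fold, with 169, 170.2 and 151 FPKM for ATP5D and 427, 407 and 384 FPKM for UQCR11 in KDM6A morulae. SDHD was called here (0.76 ± 0.28, adjusted p = 0.0306), a call lost under 6 of 16 alternatives, among them leaving out 8-cell replicate 2 (0.41), KDM6A replicate 2 (0.75) or KDM6A replicate 3 (0.70).

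Among the mitochondrial genes, CYTB was at -0.70 ± 0.20 in KDM6A morulae over 8-cell embryos and ATP8 at -1.76 ± 0.25, both called lower by limma. The CYTB call was lost without KDM6A replicate 3 (-0.61) and with no filter. MT-CO2 (0.56 ± 0.16, adjusted p = 0.0117) and COX3 (0.54 ± 0.16, adjusted p = 0.0127) were called higher. Both calls were lost without KDM6A replicate 1 (0.49 and 0.47) or replicate 3 (0.52 and 0.51), under median-of-ratios scaling (0.29 and 0.28) and with no filter on low values. COX1, called in control morulae, was at 0.15 ± 0.27 here and turned to -0.17 without KDM6A replicate 1 and -0.12 under median-of-ratios scaling. COX11 was called lower (-0.97 ± 0.34, adjusted p = 0.0252), although its libraries overlapped; the call was lost without 8-cell replicate 1 (-0.82) or 3 (-0.81) without KDM6A replicate 2 (-0.96) or 3 (-0.71), and with no filter. COX7A2L was at -0.50 ± 0.17, a call lost without KDM6A replicate 2 (-0.55) or 3 (-0.42) and with the replicate block. The difference between these sets of calls was tested only as KDM6A over control, where neither COX1 nor COX11 passed.

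Lists of genes that build, import and regulate the complexes were counted in the same way, with SD over 3 libraries as the error of their means. The share of all genes called in control morulae over 8-cell embryos, 42.7% higher and 27.1% lower, is the background for each count. Of 27 tested assembly factors of complexes II to V outside the member rule, 18 were higher and 0 lower in control morulae over 8-cell embryos. Examples are LYRM7, which loads the Rieske protein, at 5.79-fold, ATPAF1, a chaperone of the ATP synthase head, at 4.63-fold, and SDHAF1, which matures the iron-sulfur subunit of complex II, at 4.43-fold. Under TPM, quantile and median-of-ratios scaling, 14 to 16 were higher and 2 lower. Among 6 accessory or later-named subunits, 4 were higher and HIGD1A, a hypoxia-inducible protein that binds complex IV, was lower, at 1179 ± 227 FPKM in control morulae and 2457 ± 613 in 8-cell embryos. NDUFA4, since recognized as a subunit of complex IV, had 4913 ± 334 FPKM in control morulae and 1792 ± 320.1 in 8-cell embryos. ATPIF1, the inhibitor of ATP synthase run in reverse, was 5.13-fold higher.

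For 25 tested genes of mitochondrial genome expression and copy number, 7 were higher and 7 lower. POLRMT, the mitochondrial RNA polymerase, was 4.46-fold higher in control morulae, at 18.2 ± 5.28 FPKM against 4.07 ± 1.01 in 8-cell embryos. TFAM, which packages mitochondrial DNA and starts its transcription, was lower, at 42.7 ± 14.2 FPKM in control morulae against 176.8 ± 43.8 in 8-cell embryos. POLG2, a subunit of the mitochondrial DNA polymerase, was lower as well, at 8.95 ± 1.95 FPKM in control morulae and 38.3 ± 15.2 in 8-cell embryos.

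For 14 tested nuclear transcription factors and coactivators of respiratory genes, 3 were higher and 7 lower in control morulae. NRF1, which binds promoters of many respiratory genes, had 2.50 ± 1.03 FPKM in control morulae and 14.4 ± 3.96 in 8-cell embryos. GABPA had 130.1 ± 37.8 FPKM in control morulae and 451.8 ± 58.1 in 8-cell embryos. The coactivators PPARGC1A and PPARGC1B went opposite ways. PPARGC1A had 0.44 ± 0.485 FPKM in control morulae against 7.60 ± 2.67 in 8-cell embryos, and PPARGC1B 4.36 ± 0.611 in control morulae against 0.533 ± 0.365 in 8-cell embryos. PPRC1, also a listed coactivator, had 20.3 ± 2.55 FPKM in KDM6A morulae and 18.7 ± 7.42 in 8-cell embryos and was not called there. ESRRB was 6.49-fold higher in control morulae than in 8-cell embryos. For protein import and inner membrane organization, 22 of 34 tested genes were higher and 2 lower, and for fission, fusion and turnover 5 of 11 were higher and 1 lower. Between KDM6A and control morulae, 0 genes of any of these 6 lists were called by limma.

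Genes whose pattern over the 9 libraries was most like that of single members are given as a description, by Pearson's r of log2(FPKM + 1) over 10239 genes. Since all such values share the step between 8-cell and morula libraries, they are close to 1 for many genes. Nearest to ATP5B were RPL3, SLC39A4, GDE1, EIF3F and CAPZA2 (r = 0.997 to 0.998). Nearest to COX4I1 were VAMP8, TRAPPC5, ATP6V1F, PSMB7 and DCTN3 (r = 0.996 to 0.998). COX1 had DAPK1 nearest, at r = 0.972, and the next 4 genes were at 0.880 to 0.898.

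By symbol, 59 of the 64 members had a chromosome in the RefSeq annotation, whose build (ARS-UCD2.0) is not that of the files, so coordinates are left out. The nuclear members lie on 24 chromosomes, and COX7B is the X-linked one.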

How the data were processed

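The authors deposited FPKM per gene and library, per the file headers. Per the submitters' processing notes, the build was UMD3.1 and the tools were RSEM 1.2.12, Bowtie2 2.2.5, HISAT 0.1.6, StringTie 1.0.4 and bcl2fastq 2.16. The role of each, and how reads with several matches were treated, is not stated there. Files were joined by gene identifier. Some members carried a different symbol, or none, in the earlier series than in the morulae. In that series the mitochondrial members had no symbol, and some COX7C rows and the first ATP5E row had locus names in place of these symbols. Whether both series were processed in the same way was not tested. This limit applies to every comparison with the earlier series, including the COX7C row at 0 and the ratio of ATP6 to ATP8. The symbol cytb, in lower case in the morula files, was matched without regard to case, which added 1 row to the 63 found otherwise. Rows that share a symbol (COX7C, ATP5E) were kept apart.

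Comparisons were fitted with limma 3.58.1 (R 4.3.3) on log2(FPKM + 1), a scale that understates the change of low genes, with group means as coefficients and a trended prior, each on its own 6 libraries. Genes of at least 1 FPKM in at least 3 libraries were tested, and two-sided p-values were adjusted over all of them (Benjamini-Hochberg, threshold 0.05). A fold is a ratio of mean FPKM. The script was tested on simulated data. Any member could be named. Values in every library are given for mitochondrial genes and for isoform pairs, except that COX4I2, COX6A2 and COX7A1 have upper limits in morulae. For some members of highest mean (up to 4) or largest fold change (up to 2) per complex and comparison, values are given in the groups compared. UQCRH and ATP5J2, among those of highest mean, have none. List genes were taken from those of smallest p, up to 4 per comparison. SDHAF1, PPARGC1B, PPRC1 and the likeness to COX1 were chosen after their values were seen. Members, lists and tests were chosen with earlier results of these data known.

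Replicate numbers were checked as pairs: deviations from the group means correlated at -0.22, -0.24 and 0.16 between same-numbered KDM6A and control morulae. Differently numbered libraries of these groups correlated at -0.20 to 0.31. The numbers gave no clear sign of pairing, but with 3 libraries per group these values cannot settle whether samples were paired. The alternatives tried were other scalings (TPM, quantile, median-of-ratios and nuclear genes alone), other filters (none, or 5 FPKM), other pseudocounts (0.1 and 0.5), all 9 libraries in 1 fit, the replicate block, and each library left out. Other software was numpy 2.4.6, pandas 2.3.3 and matplotlib 3.10.9 under Python 3.11.15.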

Additional observations from a re-analysis of the deposited data

How the results depend on the processing

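Depth is unknown, groups hold 3 libraries, and values are relative to the library total. These limits apply to all results. Between KDM6A and control morulae, the number of members called higher was 1 after quantile normalization (ATP6, the top gene of all 6 libraries, is 0 there by construction), and the number called lower ran from 0 to 4 with 1 library left out. With 1 library left out, MT-CO2 ran from -0.00744 to 0.167 and ATP8 from -0.022 to 0.123 in that comparison. For control morulae over 8-cell embryos, the median of nuclear structural rows was 1.83 under median-of-ratios scaling. The median of mitochondrial members was 0.0854 under TPM, 0.53 after quantile normalization and -0.0119 under median-of-ratios scaling, where COX3 was at -0.0753. For KDM6A morulae over 8-cell embryos, the mitochondrial median was 0.39 after quantile normalization and -0.13 under median-of-ratios scaling, and -0.12 to 0.32 with 1 library left out. The number of members called lower ran from 2 to 5 over the same omissions. COX1 was at -0.117 under median-of-ratios scaling and ran from -0.169 to 0.457 with 1 library left out. ATP6, at 0.12 in that comparison, was at -0.144 under median-of-ratios scaling and ran from -0.0761 to 0.304 with 1 library left out. After quantile normalization it was called higher at 0.542, as fixed by its rank: 1 in every KDM6A morula and 2 in every 8-cell library. The cause of the other changes was not tested. With the replicate number as a block, 0 members were called between KDM6A and control morulae, 46 were higher and 4 lower between control morulae and 8-cell embryos, and 47 higher and 5 lower between KDM6A morulae and 8-cell embryos, although the calls of single members could differ (MT-CO2 in control morulae was lost and SDHD gained). Of 1024 values of named members under the alternatives, 968 kept direction and call, 36 lost a call, 11 gained one and 9 changed sign.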
